A study of Homo sapiens with 4 samples.

Results

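Heat shock proteins and J-domain chaperones were examined as a family of genes in a map of the transcription factor SPIB. The family was taken by symbol from the protein-coding genes of the RefSeq table for GRCh38.p14. It held the genes that begin with DNAJ, HSPA, HSPB or HSP90, together with HSPD1, HSPE1, HSPH1, HSF1, HSF2, BAG1, BAG2, BAG3 and BAG5, and without HSPA5, HSPBAP1 and HSPBP1. This gave 77 of 20037 protein-coding genes, of which 45 were J-domain genes and 32 belonged to the other classes. A gene counted as having a peak where a summit lay in its span or within 5 kb of it. The map came from chromatin immunoprecipitation with sequencing (ChIP-seq) in H1703, a long-established cell line from a human squamous carcinoma of the lung. All 4 libraries came from H1703 cells that overexpressed SPIB, an ETS-family factor known mainly from B cells, and the antibody was anti-FLAG M2. The libraries were 1 ChIP and 1 input from suspended cells and 1 ChIP and 1 input from attached cells. The labels' treatment protocol names 24 h of suspension for every library, so suspended and attached libraries were told apart by their condition label. No cells without SPIB overexpression were analysed here, and the labels do not say whether the line is a clone.

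Heat shock proteins keep other proteins folded. HSP70 proteins bind unfolded stretches of a client, J-domain proteins bring the client and set off ATP hydrolysis, and HSP110 and BAG proteins exchange the nucleotide so that the client is released. HSP90 and the mitochondrial chaperonin act on partly folded clients, and small heat shock proteins hold clients until they are refolded. HSF1 and HSF2 are the transcription factors that act on heat shock elements, repeats of a short inverted unit in the promoters of inducible members.

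Each condition had a single ChIP library, so there is no replicate error and no p-value between conditions. The filtered ChIP libraries held 20766909 tags (suspended) and 21108364 tags (attached), and the authors' lists held 9024 and 462 peaks. The lists hold called regions only, so the tags of attached cells at a suspended site, or the reverse, are not known. Intervals on tags are exact Poisson 95% intervals and intervals on shares are exact Clopper-Pearson 95% intervals. Both cover counting error alone.

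In suspended cells 23 of the 77 chaperone genes had a peak (29.9%, interval 19.97 to 41.4), beside 28.6% of all protein-coding genes. In attached cells 3 had one (3.90%, 0.811 to 11.0), beside 1.86% of all protein-coding genes. Both shares of the family were near those of all genes within their intervals. Protein-coding genes of like span outside the family would give 20.4 members with a suspended peak and 1.21 with an attached peak. The classes did not share these peaks evenly. Among the 32 members outside the J-domain classes 13 had a suspended peak, where span-matched genes would give 7.49. Among the 45 J-domain members 10 had one, where span-matched genes would give 12.9. This split was made with the counts in view and has no test.

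**Figure D1:**
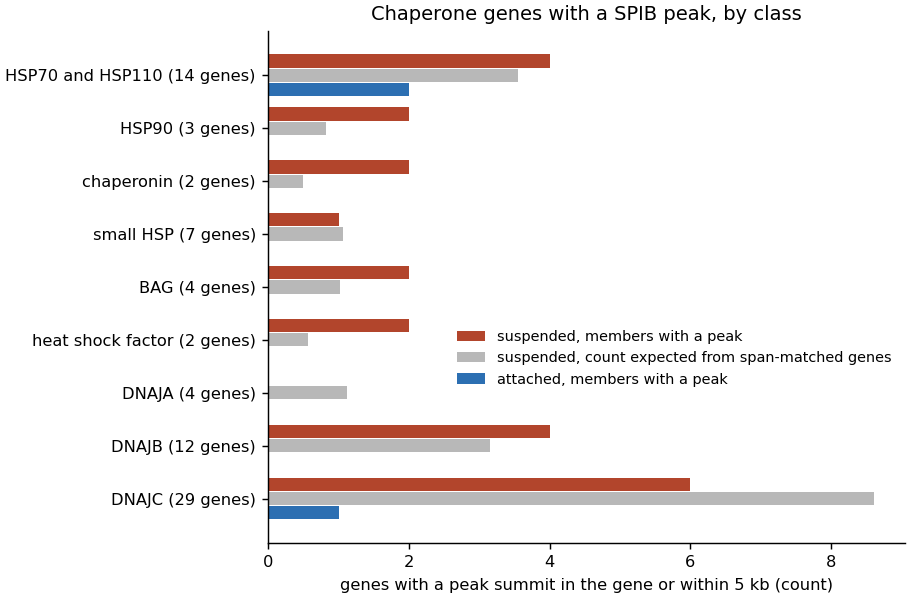
Number of chaperone genes with a peak summit in the gene or within 5 kb (horizontal axis, count) for each of 9 classes, with bars for suspended cells, for the count that genes of like span would give in suspended cells, and for attached cells. The HSP90, chaperonin, BAG and heat shock factor classes each have 2 genes with a suspended peak, above the span-matched bar, while DNAJC has 6 against 8.62 and DNAJA has none.

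Peaks close to a gene start were also counted, for the 69 members whose start the RefSeq promoter table gives. In suspended cells 13 of these 69 had a summit within 1 kb of the start (18.8%, 10.4 to 30.1), beside 13.5% of 15843 protein-coding genes with a start. Span-matched genes would give 9.45. The members were BAG3, BAG5, DNAJB11, DNAJC18, DNAJC21, DNAJC30, HSP90AA1, HSPA4, HSPA8, HSPA9, HSPD1, HSPE1 and HSPH1. In attached cells 2 of the 69 had one (2.90%, 0.353 to 10.1), HSPA8 and HSPA6, beside 0.694% of protein-coding genes. Outside the J-domain classes 9 of 28 members had a suspended peak at the start, where span-matched genes would give 3.55. Among J-domain members 4 of 41 did, where span-matched genes would give 5.90. The 9 count a single peak for both HSPD1 and HSPE1, and the HSP90AA1 summit lies closer to the start of WDR20. This split, too, was made with the counts in view and has no test. With the 4512 suspended peaks of highest score alone, 8 members had a peak at the start.

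**Figure D2:**
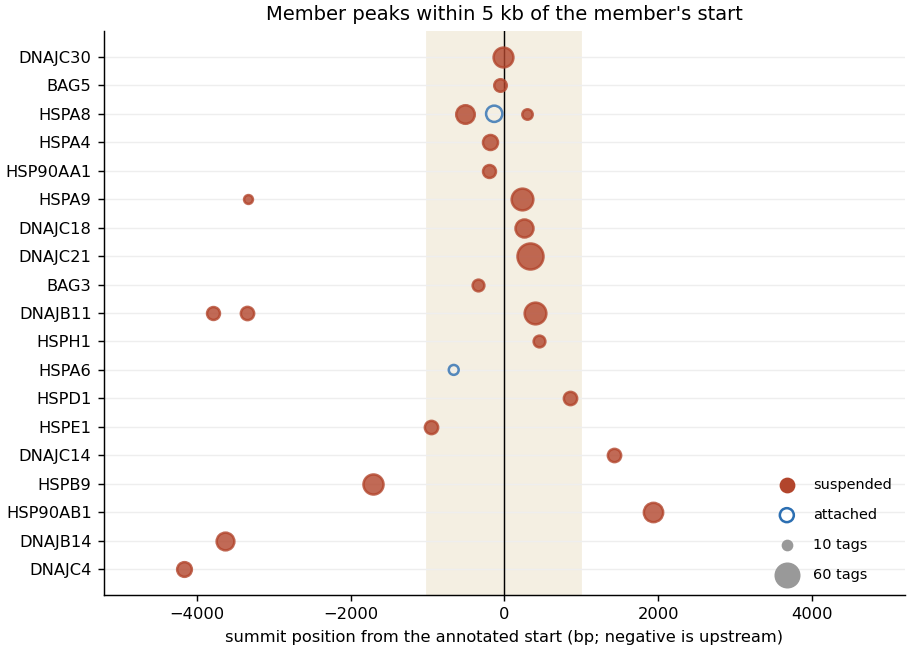
Position of each member peak whose summit lies within 5 kb of the member's annotated start (horizontal axis, bp, negative upstream), 1 row per gene, with the dot area in proportion to the tags of the peak. Of the 28 distinct suspended member peaks, 13 have their summit in the shaded 2 kb around a start. Peaks further than 5 kb from the start, or of a gene without one, are not drawn. HSPA8 is the gene with peaks of both lists.

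HSP70 and HSP110 genes had a suspended peak in 4 of 14 members, where span-matched genes would give 3.55, and each of the 4 had one at the start, where span-matched genes would give 1.57. HSPA8 encodes HSC70, the constitutive HSP70 of the cytosol. It spans chromosome 11, 123057489 to 123062462 (minus strand), and its annotated start is at 123062136. In suspended cells it had 2 peaks. The upstream peak, at 123062458 to 123062950, held 35 tags (24.4 to 48.7) at a fold of 8.19 over the local background, with its summit 516 bp before the start. The downstream peak, at 123061746 to 123061924, held 11 tags (5.49 to 19.7) at a fold of 9.18, with its summit 288 bp after the start. In attached cells HSPA8 had 1 peak, at 123062002 to 123062398, with 27 tags (17.8 to 39.3), a fold of 10.97 and a summit 133 bp before the start.

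The HSPA8 peak of attached cells lay between the suspended peaks and touched neither. It was 59 bp from the upstream one and 77 bp from the downstream one. HSPA8 was the 1 member with peaks of both lists (1.30% of 77, beside 1.36% of all protein-coding genes), and no member site overlapped between the lists by even 1 bp. Of all 462 attached peaks, 210 overlapped a suspended peak. Of the remaining 252, 5 had a suspended peak within 100 bp and 1, the HSPA8 peak, had one within 100 bp on both sides. MACS set the edges in each library on its own, and whether the tags of both libraries cover the gaps is not known from the lists.

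**Figure D3:**
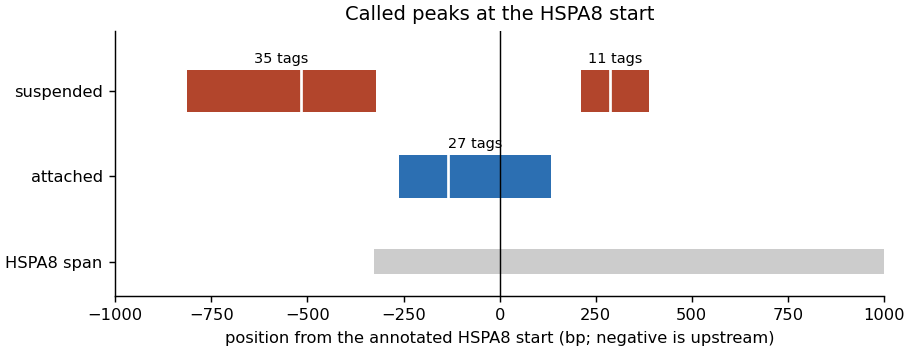
Called peaks at the HSPA8 start, drawn to scale by distance from the annotated start (horizontal axis, bp, negative upstream), with the suspended peaks above the attached peak and the annotated gene span below; white lines mark summits. The attached peak of 27 tags lies between the suspended peaks of 35 and 11 tags.

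The bases just upstream of starts that carry a peak are shown for 5 members whose called peak covers most of the stretch. They are RefSeq sequences on GRCh38.p14, written 5′ to 3′ on the gene's strand and ending at the base before the annotated start. Where another gene starts upstream on the opposite strand, the stretch stops before that start. Capitals mark the ETS core GGAA on either strand, the letters that ETS factors share in their binding sites. HSPA8 lies at chr11:123062137-123062386 (minus strand) and the attached peak covers all 250 bases shown. HSP90AA1 lies at chr14:102139750-102139896 (minus strand), and the suspended peak covers all 147 bases between it and WDR20. HSPA4 lies at chr5:133051763-133052012 (plus strand), with 218 of 250 bases in the suspended peak. BAG5 lies at chr14:103562658-103562907 (minus strand), with 212 of 250 bases in the suspended peak. DNAJC30 lies at chr7:73683454-73683596 (minus strand), and the suspended peak covers all 143 bases between it and BUD23.
HSPA8: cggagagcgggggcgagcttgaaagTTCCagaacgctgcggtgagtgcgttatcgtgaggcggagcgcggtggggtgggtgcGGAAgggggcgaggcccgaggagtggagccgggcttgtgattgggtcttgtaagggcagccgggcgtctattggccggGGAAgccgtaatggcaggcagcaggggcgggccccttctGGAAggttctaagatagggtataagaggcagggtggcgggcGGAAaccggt
HSP90AA1: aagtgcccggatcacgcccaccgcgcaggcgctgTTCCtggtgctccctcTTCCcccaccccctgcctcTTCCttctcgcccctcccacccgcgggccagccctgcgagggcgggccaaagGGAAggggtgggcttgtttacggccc
HSPA4: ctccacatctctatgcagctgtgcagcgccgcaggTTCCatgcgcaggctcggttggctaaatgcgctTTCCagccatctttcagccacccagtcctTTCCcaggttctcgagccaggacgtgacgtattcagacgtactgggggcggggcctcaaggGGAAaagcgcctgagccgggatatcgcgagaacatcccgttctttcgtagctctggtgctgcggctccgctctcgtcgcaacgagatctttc
BAG5: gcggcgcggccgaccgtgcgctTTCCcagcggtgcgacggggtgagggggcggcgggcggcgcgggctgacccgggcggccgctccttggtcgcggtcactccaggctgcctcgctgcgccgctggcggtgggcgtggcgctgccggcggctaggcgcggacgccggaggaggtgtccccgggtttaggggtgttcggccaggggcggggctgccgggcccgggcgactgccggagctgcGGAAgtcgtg
DNAJC30: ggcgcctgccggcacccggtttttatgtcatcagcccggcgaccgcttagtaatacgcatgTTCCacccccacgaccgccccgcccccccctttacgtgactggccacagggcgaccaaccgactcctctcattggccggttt
The stretches held 5 ETS cores (HSPA8), 4 (HSP90AA1), 4 (HSPA4), 2 (BAG5) and 1 (DNAJC30). The core alone is common, and 95.1% of all promoters of 300 bases hold it.

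The other HSP70 and HSP110 members with a suspended peak each had a single peak at the start. HSPA9 encodes mortalin, the mitochondrial HSP70. Its peak at chromosome 5, 138574989 to 138575723, held 48 tags (35.4 to 63.6) at a fold of 7.02, with an FDR of 0.23% and a summit 223 bp after the start. A further HSPA9 peak of 8 tags (3.45 to 15.8) lay 3333 bp before the start. HSPA4, an HSP110-type exchange factor, had 23 tags (14.6 to 34.5) at a fold of 7.37, at chromosome 5, 133051615 to 133051980, 190 bp before the start. HSPH1, which encodes HSP105, had 14 tags (7.65 to 23.5) at a fold of 9.56, at chromosome 13, 31161886 to 31162099, 443 bp after the start.

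The stress-inducible HSP70 genes had no suspended peak. HSPA1A and HSPA1B, the main inducible HSP70 genes, and their neighbour HSPA1L had no peak in either list. The suspended summit nearest to HSPA1A was 1729.7 kb away and the one nearest to HSPA1B 1717 kb away. The median protein-coding gene had 4 other suspended peaks within 500 kb, and these genes had none. HSPA1A and HSPA1B are near-identical copies, and the sources used here do not state how tags that match both were placed. The suspended summit nearest to HSPA1L was just as far off, at 1732 kb. Whether tags could be placed across this whole stretch is not known from the lists, so the lack of a called peak does not show a lack of SPIB. HSPA6, a strictly inducible HSP70, had no suspended peak and 1 attached peak, at chromosome 1, 161523826 to 161524026, with 10 tags (4.80 to 18.4) at a fold of 21.17. Its summit lay 659 bp before the start and in the tRNA gene TRG-GCC2-1, and the authors' FDR there was 100%. No peak was found for HSPA2, HSPA4L, HSPA12A, HSPA12B, HSPA13 or HSPA14.

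Both cytosolic HSP90 genes had 2 suspended peaks and no attached one, and span-matched genes would give 0.819 of the 3 HSP90 genes with a suspended peak. HSP90AA1, the inducible HSP90 alpha gene, had 17 tags (9.90 to 27.2) at a fold of 7.65 at chromosome 14, 102139717 to 102140043. That summit lay 201 bp before the HSP90AA1 start and 53 bp from the start of WDR20, on the opposite strand. A further peak lay inside the gene at 102086760 to 102087170, with 22 tags (13.8 to 33.3) and a fold of 8.19, and its summit was 52709 bp after the annotated start. The table gives 1 start per gene, so starts of other transcripts were not used. Whether this inner HSP90AA1 peak lies at the start of another transcript is therefore not known here. The same holds for the HSP90AB1 peak below, 1929 bp after its annotated start. HSP90AB1, the constitutive HSP90 beta gene, had 38 tags (26.9 to 52.2) at a fold of 5.04 at chromosome 6, 44247596 to 44248172, 1929 bp after the start. Its other peak, of 33 tags (22.7 to 46.3), lay 3125 bp beyond the gene and 882 bp from the start of SLC35B2. HSP90B1, the endoplasmic reticulum form, had no peak in either list.

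The chaperonin genes HSPD1 (HSP60) and HSPE1 (HSP10) sit head to head, with starts 105 bp apart, and shared 1 suspended peak. It lay at chromosome 2, 197499317 to 197499626, with 18 tags (10.7 to 28.4) at a fold of 6.37, and its FDR was 4.98%. The summit was 853 bp inside HSPD1 and 958 bp upstream of HSPE1, so it did not lie between the starts. The peak adds 2 members to the count, and with the pair taken as 1 gene and the readthrough locus DNAJC25-GNG10 left out, 22 genes had a suspended peak.

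Of the 4 BAG genes, BAG3 and BAG5 had a suspended peak, where span-matched genes would give 1.01, and it lay at the start. BAG3, which works with HSPB8 in selective autophagy of misfolded proteins, had 14 tags (7.65 to 23.5) at a fold of 11.92, at chromosome 10, 119650896 to 119651116, 348 bp before the start. BAG5, an HSP70 exchange factor, had 16 tags (9.15 to 26.0) at a fold of 8.82, at chromosome 14, 103562571 to 103562869, 61 bp before the start. COA8 starts 303 bp upstream on the opposite strand. BAG1 and BAG2 had no peak in either list.

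The heat shock factor genes both had a suspended peak, away from the start of HSF2 and outside the HSF1 span, where span-matched genes would give 0.560. The HSF2 peak, at chromosome 6, 122420898 to 122421055, held 8 tags (3.45 to 15.8) at a fold of 12.42 and lay 21454 bp inside the gene. The HSF1 peak, at chromosome 8, 144319111 to 144319430, held 21 tags (13.0 to 32.1) at a fold of 5.96. Its summit lay 4589 bp beyond the gene span, and in or within 5 kb of DGAT1 as well. It is therefore an HSF1 peak by the 5 kb rule alone.

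Small heat shock proteins had 1 suspended peak among 7 members, where span-matched genes would give 1.05, and no attached one. That peak was assigned to HSPB9, a testis gene, with 41 tags (29.4 to 55.6) at a fold of 4.39 at chromosome 17, 42120849 to 42121484. It lay 1710 bp before HSPB9 and 273 bp from the start of KAT2A, an acetyltransferase gene. HSPB1, HSPB2, HSPB3, HSPB6, HSPB7 and HSPB8 had none, and the suspended summit nearest to HSPB1, the gene of HSP27, was 11.1 kb away.

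Among the 12 DNAJB genes 4 had a suspended peak, where span-matched genes would give 3.15. DNAJB11 encodes a J-domain partner of the endoplasmic reticulum HSP70. It had the member peak of highest score, which ranked 176 of 9024, at chromosome 3, 186570657 to 186571444. That peak held 48 tags (35.4 to 63.6) at a fold of 9.68, with an FDR of 0% and a summit 400 bp after the start. TBCCD1 starts 402 bp upstream on the opposite strand, and further peaks of 17 and 18 tags lay 3788 and 3345 bp before DNAJB11. The DNAJB14 peak had the highest fold of the member peaks in suspended cells, 13.51, with 32 tags (21.9 to 45.2) at chromosome 4, 99950159 to 99950806. Its summit lay 3629 bp before DNAJB14, which encodes a membrane J-protein of the endoplasmic reticulum, and 28 bp from the start of the histone gene H2AZ1.

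The other DNAJB peaks lay far from the start. DNAJB12, which also encodes a J-protein of the endoplasmic reticulum membrane, had 36 tags (25.2 to 49.8) at a fold of 7.84, 4258 bp beyond the end of the gene. DNAJB6, known for holding back protein aggregation, had 11 tags (5.49 to 19.7) at a fold of 11.14, 50286 bp inside the gene. DNAJB1, the main J-domain partner of inducible HSP70, had none, and its nearest suspended summit was 8.83 kb away. None of the 4 DNAJA genes had a peak, where span-matched genes would give 1.12 in suspended cells.

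Among the 29 DNAJC genes 6 had a suspended peak, where span-matched genes would give 8.62, and in 3 it lay at the start. DNAJC21, a factor of large ribosomal subunit assembly, had the most tags of any member peak, 69 (53.7 to 87.3), at chromosome 5, 34929179 to 34930003, 328 bp after the start. Its fold of 3.38 was the lowest of the member peaks. DNAJC30, a mitochondrial J-protein, had 40 tags (28.6 to 54.5) at a fold of 3.96 at chromosome 7, 73683096 to 73683753. The summit was 20 bp before its start, and BUD23 starts 144 bp upstream. DNAJC18 had 33 tags (22.7 to 46.3) at a fold of 5.70, at chromosome 5, 139439061 to 139439601, 258 bp after the start.

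The remaining DNAJC peaks were further off. DNAJC14 had 18 tags (10.7 to 28.4) at a fold of 10.53, 1430 bp after the start. DNAJC7, which binds both HSP70 and HSP90, had 18 tags at a fold of 6.63, 39019 bp inside the gene. The DNAJC4 peak, of 22 tags (13.8 to 33.3) at a fold of 6.04, lay 4167 bp before DNAJC4 and 9 bp from the start of NUDT22. In attached cells DNAJC6 had 1 peak. DNAJC6 encodes auxilin, which works with HSC70 to strip clathrin from vesicles in neurons. The peak lay at chromosome 1, 65309819 to 65310109, 45185 bp inside the gene, with 23 tags (14.6 to 34.5) at a fold of 21.55, and its FDR was 17.78%.

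The 3 attached peaks had FDR values of 17.78% (DNAJC6), 27.71% (HSPA8) and 100% (HSPA6), and none was at most 5%. In the whole attached list 5.41% of peaks were at most 5%, and the median FDR was 100%. The 28 distinct suspended peaks had FDR values up to 5.18%, and 27 (96.4%) were at most 5%, beside 76.8% of the whole suspended list. They made up 0.310% of the suspended list, and the 3 attached peaks 0.649% of the attached list. The suspended member peaks held a median of 21.5 tags in 346.5 bp, beside 15 tags in 252 bp for the whole list. Their median fold was 7.68, beside 9.10 for the whole list. By these medians the member peaks were wider, held more tags and had a lower fold than the list they came from. By rule the member peaks lie in or within 5 kb of a protein-coding gene, and peaks of the whole list need not. A comparison with other peaks near genes was not made. The 13 peaks with a summit within 1 kb of a member's start had a median of 23 tags and a fold of 7.65, and the other 15 a median of 21 tags and a fold of 7.71. The closest start of any protein-coding gene in the table was a member's for 19 of the 28 and another gene's for 8. For the HSF1 peak no start was at hand, because the promoter table gave none for any protein-coding gene of chromosome 8.

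**Figure D4:**
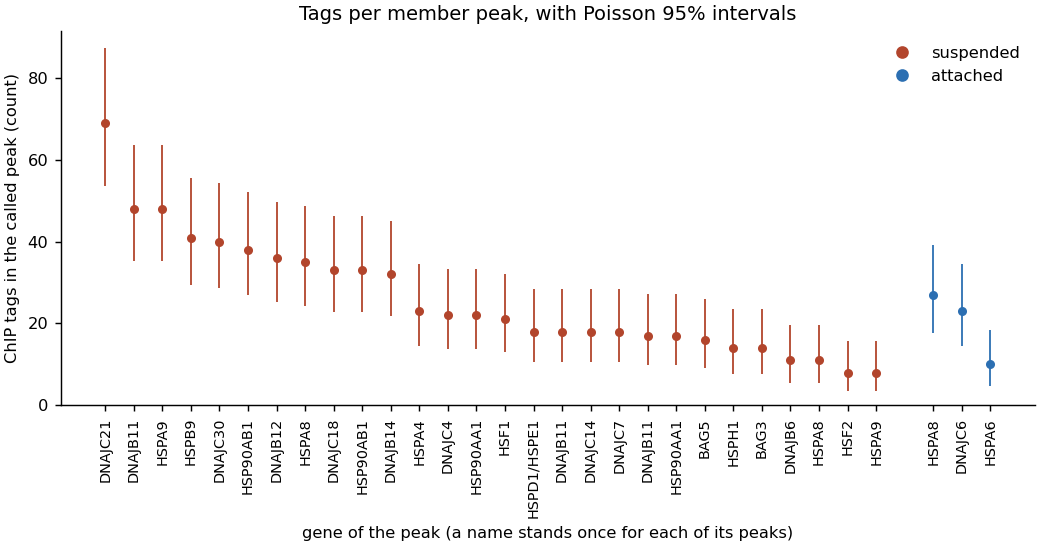
ChIP tags in each called member peak (vertical axis, count) with exact Poisson 95% intervals, the 28 suspended peaks first and the 3 attached peaks after them, each ordered by tags. DNAJC21 has the most with 69, HSF2 and the second HSPA9 peak the fewest with 8, and the 3 attached peaks lie between 10 and 27.

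Starts were also sorted by whether they had a divergent neighbour, a protein-coding gene on the opposite strand whose start lay up to 1 kb upstream, or overlapped by under 100 bp. Of the 14 members with such a neighbour 6 had a peak at the start (42.9%), namely BAG5, DNAJB11, DNAJC30, HSP90AA1, HSPD1 and HSPE1. Of the 55 without one 7 did (12.7%). Among all protein-coding genes with a start the shares were 21.9% of 1663 and 12.5% of 14180. HSPD1 and HSPE1 are each other's neighbour and share their peak, so the members are not independent. The median promoter of the 13 members with a peak had 66.3% G and C and a CpG ratio (observed over expected) of 0.942. For the 56 members without one these were 63.8% and 0.794. All protein-coding promoters had medians of 62.7% and 0.763. For the 2142 protein-coding genes with a suspended peak at the start the medians were 65.7% and 0.848. For the 13701 without one they were 62.3% and 0.742, so the same direction was seen outside the family.

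Motif letters were searched on both strands in promoters of 300 bases, 250 before and 50 after the start. The ETS motif CCGGAAG was in none of the 13 members with a suspended peak at the start and in 13 of the 56 without one (23.2%). It was in 20.9% of all 2142 protein-coding genes with a suspended peak at the start and in 14.2% of all 15843 with a start. DNAJC25 and the readthrough locus DNAJC25-GNG10 share the same start and count as 2 of the 13 members with the motif. Members with CCGGAAG included BAG1, DNAJA1, DNAJA3, DNAJB9, DNAJC2 and DNAJC5, which had no peak in either list. DNAJB12, DNAJC7 and DNAJC14 also held it and had a suspended peak by the 5 kb rule, away from the start. The motif GAGGAAG, closer to the sites of SPIB and its relative PU.1, was in 2 of the 13 (15.4%) and 6 of the 56 (10.7%), beside 14.2% of all. Neither motif contains the other, and both contain the core GGAA. Most summits of the suspended peaks at member starts lie outside these 300 bases. Those of BAG5, DNAJC30, HSP90AA1 and HSPA4 alone lie inside. The motif counts of the 13 members therefore describe mostly bases away from the summit, and a match is a description of the letters alone.

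Heat shock letters were found by the pairs GAANNTTC and TTCNNGAA, each its own reverse complement. GAANNTTC was in 12 of the 69 member promoters (17.4%), beside 5.56% of all. The 12 are not all separate sites. HSPA1A and HSPA1L share the same match between their starts, and the near-identical copy HSPA1B is counted as well. GAANNTTC was in 1 of the 13 members with a suspended peak at the start, HSPA8, beside 3.69% of all 2142 protein-coding genes with such a peak. It was in 11 of the 56 members without one (19.6%), among them HSPA1A, HSPA1B, HSPA6, HSPB1 and HSPB8. TTCNNGAA was in 8 of the 69 (11.6%), beside 6.60% of all. Run together as 3 units in a row, the letters were in the promoters of DNAJA1, DNAJB6, HSPA6 and HSPA8, 4 of 69 (5.80%), beside 0.366% of all. HSPA8 has 2 such runs, both in the stretch shown above and inside the attached peak. The first is gaaagttccagaa, from 230 to 218 bases before the start, and the other is ttctggaaggttc, from 55 to 43 bases before it. The TATA letters TATAAA were in none of the 13 and in 11 of the 56 (19.6%), beside 9.63% of all. The letters CCAAT were in 4 of the 13 (30.8%) and 22 of the 56 (39.3%), beside 36.4% of all.

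**Figure D5:**
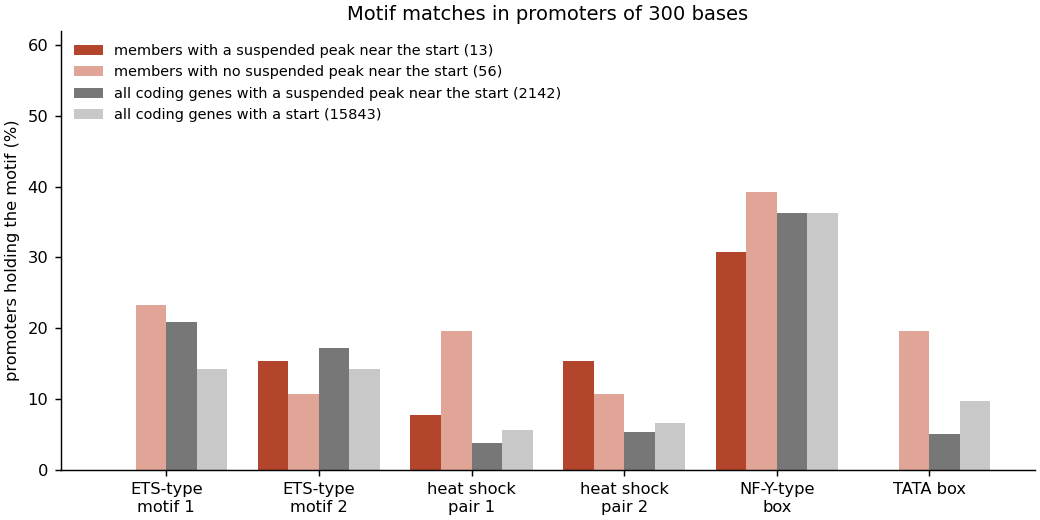
Share of promoters of 300 bases that hold each motif on either strand (vertical axis, percent), for members with and without a suspended peak at the start and for all protein-coding genes with such a peak or with a start. ETS-type motif 1 is CCGGAAG and motif 2 GAGGAAG, heat shock pair 1 is GAANNTTC and pair 2 TTCNNGAA; the first ETS motif and the TATA box have no bar for the 13 members with a peak.

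Other genes of the chaperone network outside the family were counted from a list of 48 genes, 47 of which are protein-coding in the table. In suspended cells 11 of the 47 had a peak, where span-matched genes would give 13.3, and in attached cells none had one. CCT5, a subunit of the cytosolic chaperonin TRiC, had 140 tags at a fold of 8.81, 260 bp before its start. PFDN5, a prefoldin subunit, had 29 tags at a fold of 6.64, 424 bp after its start. The J-domain genes HSCB and SEC63, which carry no DNAJ symbol, each had peaks within 1 kb of the start, with highest folds of 11.92 and 7.56. The highest folds of the list were 15.71 at ST13 (10 tags) and 15.07 at SGTA (11 tags), both HSP70 cochaperones.

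The rule drew its line at 5 kb from the gene. Just inside were the peaks of HSF1 (4589 bp), DNAJB12 (4258 bp) and DNAJC4 (4167 bp), and just outside the suspended summits nearest to DNAJC6 (5087 bp) and DNAJC8 (6369 bp). With summits inside the gene alone 13 members had a suspended peak. Members with a suspended peak had a median of 7 other suspended peaks within 500 kb, members without one a median of 4, and all protein-coding genes with a suspended peak a median of 6. The part of this local density in the result was not tested beyond matching: genes of like density would give 21.3 members with a suspended peak, and genes of the same chromosomes 22.6. In all, 52 of the 77 members had no peak in either list, and 31 of the 54 members without a suspended peak had a suspended summit within 100 kb.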

How the data were processed

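ChIP and input libraries were 1 each from suspended and attached H1703 cells. Per the file headers, the authors ran MACS 1.4.2 on each ChIP library with the same condition's input as control, at a p-value cutoff of 1e-05. Positions are hg38, per the submitters' processing notes, and no aligner is given in the sources used here. In the deposited lists, tags are a count of ChIP tags in the peak, not normalized. Fold is a ratio computed by the authors, ChIP tags over local background, and the FDR is the authors' percent from exchanging ChIP and input. The column with a lost name was taken, from its place in the table, as the authors' MACS score, a scaled negative log10 of a peak's p-value. The peak length in bp and the summit, counted from the peak start, are other columns of the deposited lists. Fold, score and FDR served to describe and filter peaks of the same list.

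Summits (start plus summit minus 1) were placed against RefSeq spans of GRCh38.p14, the assembly that hg38 names. Starts came from the RefSeq promoter table, which was matched for 69 of 77 members, and 8 were not used for starts. It gave a start for 15843 of 20037 protein-coding genes and for none on chromosome 8. Shares and closest starts that rest on starts leave the other genes out. The count expected from genes of like span is the sum, over members, of the share with a peak among other protein-coding genes in the same of 20 span bins. Placement was tested on simulated peaks put in the middle of known genes. Matching was tested on random calls per gene, at rates set by the same span bins. Both check the computation alone. Python 3.11.15, numpy 2.4.6, pandas 2.3.3, SciPy 1.17.1 and matplotlib 3.10.9 were used. Members and lists were chosen with earlier results of these data known. Every member with a peak is named, and 10 core chaperone genes whatever their values. Alternatives were other flanks and windows, interval overlap, an FDR limit, a score limit and other matching.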

Additional observations from a re-analysis of the deposited data

How the results depend on the processing

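The count of 23 members with a suspended peak became 13 with summits inside the gene alone, and lay between 16 and 27 under the other 6 alternatives. The 3 attached members became 0 at an FDR of at most 5%, and were 2 or 3 otherwise. The 13 members with a suspended peak at the start became 8 with the 4512 peaks of highest score, and lay between 11 and 16 with other windows, either gene end or the FDR limit. The span-matched count of 20.4 lay between 20.3 and 22.6 with 10 bins, no matching, or matching on chromosome or local density. The last 2 of these, and the count with HSPD1 and HSPE1 as 1 gene, were chosen after seeing the data. The planned ratio of tags between conditions has no value, because no member site was shared between the lists. Why these counts move was not tested, apart from fewer peaks or a narrower window being counted. No paired analysis was possible because each group has 1 library. With 8 tags in the smallest peaks and 1 library per condition, differences between single peaks are limited by depth.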

Other observations

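Members on some chromosomes carried suspended peaks more often than on others. On chromosome 5, 4 of 5 members had one (DNAJC18, DNAJC21, HSPA4 and HSPA9), where 38.5% of protein-coding genes of that chromosome did. On chromosome 17 both members had one, DNAJC7 and HSPB9, where 43.6% of protein-coding genes did. On chromosome 1 none of 7 members had one, where 25.2% of protein-coding genes did, and the member peaks there, at DNAJC6 and HSPA6, were attached ones. On chromosome 9 none of 5 members had a suspended peak, where 25.6% of protein-coding genes did. These are values of few genes and were not tested.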
